A study of Mus musculus with 11 samples.

Results

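The genes described here were 9 members of the purinergic system, 7 receptors and 2 enzymes. They were the ligand-gated ion channels P2rx4 and P2rx7, the G protein-coupled nucleotide receptors P2ry6 and P2ry13, the ectonucleotidases Entpd1 (CD39) and Nt5e (CD73), and the adenosine receptors Adora1, Adora2a and Adora3. They were chosen by name, and all 9 were found among the 32285 genes of the deposited tables. Single-cell RNA sequencing had been run on the right brain of 11 mice, with 1 library per mouse. The sham + WT group held 3 wild-type mice after sham surgery, and the MCAO/R + WT group held 2 wild-type mice after middle cerebral artery occlusion and reperfusion, a model of ischemic stroke in which a filament blocks the artery and is then withdrawn. The sham + Lrg1-/- and MCAO/R + Lrg1-/- groups held 3 mice each, all carrying a conventional knockout of Lrg1 (leucine-rich alpha-2-glycoprotein 1). Per the study's methods the wild-type mice were C57BL/6, and the knockout line, from another supplier, was C57BL/6N-Lrg1em1cyagen crossed back to C57BL/6N (named C57BL/6J in 1 place), so that strain and supplier go with genotype. The methods give the wild-type mice as male and as younger than the knockout mice, so that stated age goes with genotype as well. They do not state the sex of the knockout mice. The gene is missing from all cells of such mice, so that no difference between genotypes can be assigned to Lrg1 in 1 cell type. Lrg1 had 0 UMIs in all 6 Lrg1-/- libraries, against 931 over the libraries of sham + WT and 29032 over those of MCAO/R + WT. A UMI (unique molecular identifier) stands for 1 captured RNA molecule.

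Injured and active cells release ATP and other nucleotides, which neighbouring cells read as a signal. P2X receptors are channels opened by ATP. P2Y receptors signal through G proteins, and respond to ATP, ADP or uracil nucleotides. On the cell surface CD39 cuts ATP and ADP down to AMP, and CD73 cuts AMP to adenosine, so that the pair turns an ATP signal into an adenosine signal. Adenosine then acts on its own receptors, of which those of Adora1 and Adora3 lower cyclic AMP and that of Adora2a raises it. In the brain, microglia, the resident macrophages, are known for reading nucleotides: P2Y12 (P2ry12, a relative of P2ry13) steers their processes toward sites of ATP release, P2Y6 is linked to phagocytosis, and P2X7 to release of interleukin-1 beta.

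P2ry13 lay on chr3:59207892-59210882 (build GRCm38, minus strand), 5389 bases from P2ry12, and P2rx7 (chr5:122643911-122691432, plus strand) lay 16111 bases from P2rx4 (chr5:122707544-122729738, plus strand). Adora3 (chr3:105870858-105908926, plus strand) overlaps Tmigd3 on the same strand, so that its reads may be shared with that gene and its counts are uncertain. The same holds for Entpd1 (chr19:40612366-40741602, plus strand), which overlaps AC166063.1 on its strand. The sequences shown here belong to P2ry13, P2ry12 and Entpd1, because all 3 genes were lower in microglia after MCAO/R in both genotypes. They are the 250 bases before annotated start sites, from 5′ to 3′ on the strand of the gene, from RefSeq on GRCm38.p6. The capitals mark the letters GAGGAA, a core recognised by PU.1 and other ETS factors of macrophages, searched on both strands (TTCCTC on the other).
P2ry13 (chr3:59210883-59211132, minus strand): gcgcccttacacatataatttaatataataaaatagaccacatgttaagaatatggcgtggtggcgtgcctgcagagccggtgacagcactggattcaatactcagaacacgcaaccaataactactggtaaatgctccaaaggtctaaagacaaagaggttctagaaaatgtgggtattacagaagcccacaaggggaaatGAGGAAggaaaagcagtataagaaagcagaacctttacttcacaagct
P2ry12 (chr3:59262986-59263235, minus strand): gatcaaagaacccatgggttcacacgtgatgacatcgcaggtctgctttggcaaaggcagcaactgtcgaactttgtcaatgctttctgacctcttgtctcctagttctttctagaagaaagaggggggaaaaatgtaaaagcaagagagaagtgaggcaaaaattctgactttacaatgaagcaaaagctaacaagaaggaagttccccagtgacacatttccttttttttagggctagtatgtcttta
Entpd1, first start (chr19:40612116-40612365, plus strand): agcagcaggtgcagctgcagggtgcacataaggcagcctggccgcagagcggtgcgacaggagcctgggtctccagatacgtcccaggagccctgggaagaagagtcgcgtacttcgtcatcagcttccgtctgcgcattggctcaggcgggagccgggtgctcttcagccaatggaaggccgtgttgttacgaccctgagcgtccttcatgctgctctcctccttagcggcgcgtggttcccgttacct
Entpd1, second start (chr19:40659520-40659769, plus strand): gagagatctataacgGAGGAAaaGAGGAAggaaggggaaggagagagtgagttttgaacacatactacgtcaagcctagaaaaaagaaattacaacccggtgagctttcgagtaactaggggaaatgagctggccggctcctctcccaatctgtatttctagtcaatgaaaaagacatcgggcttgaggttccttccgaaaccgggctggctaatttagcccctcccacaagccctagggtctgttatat
P2ry13 held 1 core, 48 bases before its start. The second start of Entpd1 held 2, and the first start of Entpd1 and P2ry12 held 0. Of 32851 promoters cut to the same length, 23.3% held at least 1 core. These are matches of letters and no measure of binding.

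After filters on quality and removal of likely doublets, 124491 of 155804 barcodes were kept, and 93087 of them fell in clusters that marker genes named as 1 of 17 cell types. Total UMIs ranged from 37159497 to 171813031 per library, and the median per kept cell from 3190 to 11504. UMIs were summed per library and cell type and are given as CPM (UMIs of a gene in every 1000000 UMIs), scaled within each cell type. A type in a library entered with at least 20 cells. Libraries of the 2 genotypes stood apart: haemoglobin genes, the mark of red blood cell RNA, summed to 15.6 to 25.9 CPM in microglia of WT libraries and to 8192 to 33147 CPM in those of Lrg1-/- libraries. Fos, Fosb, Jun, Junb, Egr1, Ier2 and Atf3 were read as dissociation genes, a response to tissue dissociation, but what moved them was not tested. They summed to 28490 to 34983 CPM in WT microglia and to 9749 to 17079 CPM in Lrg1-/- microglia. Choroid plexus markers (Ttr, Folr1, Kcnj13, Clic6) summed to 104 to 536 CPM in WT microglia and 2223 to 3926 CPM in Lrg1-/- microglia, and were likewise higher without overlap in the 6 other types examined, leaving out choroid plexus epithelial cells. In a comparison of WT with Lrg1-/- libraries, genotype and these differences cannot be told apart. The comparisons of MCAO/R with sham within a genotype do not cross that divide. Within Lrg1-/- mice, however, the libraries also differed in size. MCAO/R + Lrg1-/- replicates 2 and 5 held 170657114 and 171813031 UMIs. Replicate 1 of that group held 51062713 UMIs, and the sham + Lrg1-/- libraries 37159497 to 70976468. The lowest count of a barcode was 500 UMIs in replicates 2 and 5, and 551 to 770 UMIs in the other Lrg1-/- libraries. The part of this split in the surgery results was not tested. Dissociation genes were also lower after MCAO/R in several types. In Lrg1-/- mice they were at 14458 to 17079 CPM after sham and 9749 to 13892 CPM after MCAO/R in microglia, at 14079 to 17560 CPM and 7920 to 10336 CPM in border-associated macrophages, and at 25769.5 to 27338 CPM and 15086.5 to 16940.4 CPM in endothelial cells. In WT mice they were at 32125 to 34983 CPM and 28489.5 to 30772 CPM in microglia and at 27692 to 30795 CPM and 23364 to 25682 CPM in endothelial cells. None of these ranges overlapped, and their part in the surgery results was not tested.

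The members were highest in different cell types, with P2rx7 and P2ry6 both highest in border-associated macrophages and P2ry13 and Adora3 both in microglia. The heat map of levels by cell type shows all of them. Levels are given as mean ± SD over the libraries, of any group, with at least 20 cells of the type, with no test. P2rx4 was highest in B cells (173 ± 95.6 CPM, n = 3), then in border-associated macrophages, the macrophages of vessels, meninges and choroid plexus (136 ± 21.5 CPM, n = 11), monocytes and monocyte-derived macrophages (92.5 ± 22.4 CPM, n = 5) and microglia (75.7 ± 8.59 CPM, n = 11). The libraries of each of these 4 types overlapped with those of the next, and only sham + WT libraries had enough B cells. In the other 13 types the mean lay between 3.66 CPM in dividing cells and 33.3 CPM in T cells. P2rx7 was highest in border-associated macrophages (531 ± 338 CPM, n = 11), whose lowest library, at 155 CPM, stood above the highest microglial one, at 84.8 CPM. Microglia (66.3 ± 12.7 CPM, n = 11) and oligodendrocyte precursor cells (61.5 ± 21.1 CPM, n = 4) followed and overlapped, then astrocytes (33.2 ± 8.11 CPM, n = 11) and ependymal cells (31.6 CPM), which also overlapped.

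**Figure D1:**
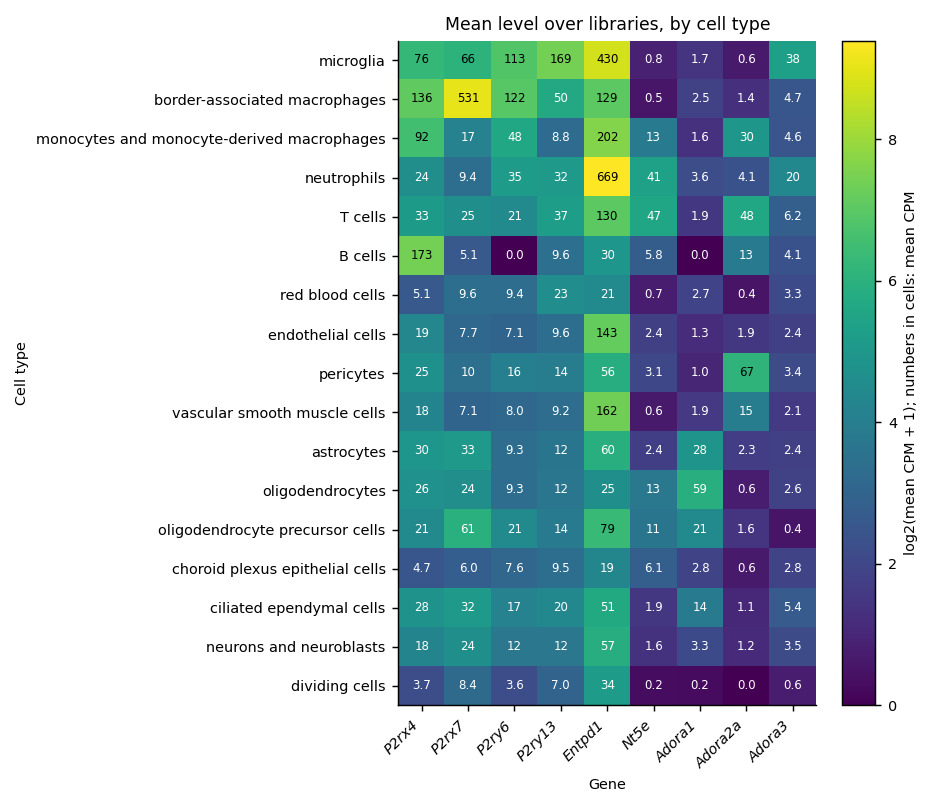
Mean CPM over libraries of the 9 genes in the 17 cell types, with colour on a log2(mean CPM + 1) scale. P2rx7 peaked in border-associated macrophages (531 CPM), P2ry13 in microglia (169 CPM), Adora1 in oligodendrocytes (58.5 CPM) and Adora2a in pericytes (67.3 CPM).

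P2ry6, a receptor for uridine diphosphate, was at 122 ± 26.6 CPM in border-associated macrophages and 113 ± 22.8 CPM in microglia (n = 11 each), which overlapped. The lowest microglial library (82.9 CPM) stood above the highest of the next type, monocytes (62.3 CPM). B cells had 0 UMIs of it. P2ry13, a receptor for ADP, was highest in microglia (169 ± 80.1 CPM, n = 11), ahead of border-associated macrophages (49.9 ± 24.5 CPM, n = 11), T cells (37.0 CPM) and neutrophils (32.4 CPM). Each of these types overlapped with the next, and the wide spread in microglia and border-associated macrophages followed surgery, as given further on.

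Entpd1 was highest in neutrophils (669 ± 255 CPM, n = 4) and microglia (430 ± 154 CPM, n = 11), which overlapped over the libraries of all groups. Neutrophils came from MCAO/R libraries only, and in each of those 4 libraries they held more Entpd1 than the microglia did, at 115 to 377% of the microglial level. Monocytes (202 ± 66.3 CPM, n = 5), vascular smooth muscle cells (162 ± 34.5 CPM, n = 11) and endothelial cells (143 ± 21.5 CPM, n = 11) came next, each overlapping with its neighbour. Nt5e, the enzyme of the next step, was highest in T cells (46.6 ± 19.5 CPM, n = 6) and neutrophils (40.7 ± 9.43 CPM, n = 4), and was present in oligodendrocytes (12.6 ± 6.5 CPM, n = 11). In microglia it averaged 0.824 CPM and in border-associated macrophages 0.488 CPM. Neutrophils and T cells (Entpd1 at 129.9 ± 89.7 CPM) thus held both enzymes, and microglia much Entpd1 and little Nt5e. In monocytes Nt5e averaged 13.4 ± 17.0 CPM, but the sham libraries held 0 or 1 UMI each. The MCAO/R + Lrg1-/- libraries held 23.0 and 38.7 CPM, and no MCAO/R + WT library had enough monocytes. Both were also counted in oligodendrocytes (Entpd1 at 24.8 CPM) and oligodendrocyte precursor cells (Entpd1 at 79.2 CPM, Nt5e at 11.5 CPM). As a share of the microglial level, Entpd1 in oligodendrocytes was mostly below the microglial markers (the sum of Tmem119, Cx3cr1 and Csf1r). It was above them in 1 of 3 sham + WT, 0 of 2 MCAO/R + WT, 0 of 3 sham + Lrg1-/- and 1 of 3 MCAO/R + Lrg1-/- libraries. The part of microglial RNA was not tested. Of the 17 Nt5e UMIs in precursor cells, 13 came from 1 MCAO/R + WT library.

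The 3 adenosine receptors divided between cell types. Adora1 was highest in oligodendrocytes (58.5 ± 10.2 CPM, n = 11), and the lowest of those libraries (44.6 CPM) stood above the highest astrocyte library (38.8 CPM). Astrocytes (28.4 ± 9.53 CPM, n = 11) and oligodendrocyte precursor cells (20.7 CPM) followed and overlapped. Adora2a was highest in pericytes, the contractile cells of capillaries (67.3 ± 25.1 CPM, n = 10), which overlapped with T cells (47.7 ± 18.8 CPM, n = 6). Monocytes and monocyte-derived macrophages held 30.4 ± 12.6 CPM (n = 5), and vascular smooth muscle cells 14.9 ± 4.47 CPM (n = 11). Adora3 was highest in microglia (38.4 ± 8.27 CPM, n = 11), which overlapped with neutrophils (20.1 ± 13.7 CPM, n = 4), and the other types averaged 6.22 CPM or less.

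The genes most like each member across the 17 types were found by Pearson's correlation of log2(mean CPM + 1) among 14998 genes, as a description. P2ry13 was most like P2ry12 (r = 0.96), and P2ry6 was most like the lysosomal enzyme gene Gusb and Ms4a6d (r = 0.96 for both). Adora1 was most like the cadherin gene Cdh19 (r = 0.96), Entpd1 like the kinase gene Map2k3 (r = 0.96) and P2rx4 like the mannosidase gene Man1a (r = 0.93). The highest values were with the amino acid transporter gene Slc1a5 for Adora2a (r = 0.90), Nrap for P2rx7 (r = 0.89), Ccdc88b for Adora3 (r = 0.88) and Ly6c2 for Nt5e (r = 0.85). Among the members themselves the highest values were those of P2ry13 with Adora3 (r = 0.80) and of P2rx7 with P2ry6 (r = 0.72). The types share their libraries, so these are not independent points.

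To ask what MCAO/R changed in each genotype, and what the knockout changed after MCAO/R and after sham surgery, each type was fitted with edgeR over all genes. A gene was called at an adjusted p below 0.05 and a natural-log fold change beyond 0.25. The members gave 9 called pairs of gene and cell type of 74 tested for MCAO/R + WT against sham + WT (1 higher, 8 lower), where 9.82% of all 144161 gene and type pairs were called (4.99% higher, 4.83% lower). For MCAO/R + Lrg1-/- against sham + Lrg1-/-, 13 of 86 pairs were called (7 higher, 6 lower), against 11.0% of all pairs (6.03% higher, 4.95% lower). For MCAO/R + Lrg1-/- against MCAO/R + WT the count was 15 of 82 (11 higher, 4 lower), against 15.9% of all pairs (8.26% higher, 7.61% lower). For sham + Lrg1-/- against sham + WT it was 2 of 84 (1 higher, 1 lower), against 9.08% (4.31% higher, 4.77% lower). These shares were not tested against each other. The comparisons share groups with each other. The test of whether the surgery difference itself depended on genotype (the interaction) called 0 of 73 pairs in edgeR, against 1.74% of all pairs, with 10 at an unadjusted p below 0.05 (13.9% of all pairs) and 2 called by DESeq2 (5.76% of all pairs to which it gave an adjusted p).

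Within single cell types the members called are set here beside the share of all genes tested in that type that were called in the same comparison. For MCAO/R + WT against sham + WT, 2 members were called in microglia, where 21.5% of all genes were, 2 in border-associated macrophages (8.85%), 2 in endothelial cells (19.5%) and 3 in oligodendrocytes (19.7%). For MCAO/R + Lrg1-/- against sham + Lrg1-/-, 3 members were called in microglia (35.9%), 3 in border-associated macrophages (10.5%), 3 in endothelial cells (21.0%), 2 in oligodendrocytes (13.5%), 1 in vascular smooth muscle cells (11.8%) and 1 in choroid plexus epithelial cells (4.2%). For MCAO/R + Lrg1-/- against MCAO/R + WT, 1 member was called in microglia (21.0%), 1 in border-associated macrophages (16.2%), 1 in endothelial cells (24.5%), 3 in pericytes (8.65%), 4 in oligodendrocytes (30.7%), 4 in neurons and neuroblasts (10.9%) and 1 in choroid plexus epithelial cells (31.0%). For sham + Lrg1-/- against sham + WT, 1 was called in microglia (22.6%) and 1 in choroid plexus epithelial cells (19.5%). A low-count filter chose which members entered each type, so that a share over them is not given.

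Of the P2X receptors, P2rx7 differed most in border-associated macrophages. The sham + WT libraries held 682, 599 and 668 CPM, the MCAO/R + WT libraries 716 and 1329 CPM, the sham + Lrg1-/- libraries 459, 553 and 242 CPM, and the MCAO/R + Lrg1-/- libraries 155, 203 and 233 CPM. The 3 MCAO/R + Lrg1-/- libraries were thus the lowest of the 11 and the 2 MCAO/R + WT libraries the highest, with no overlap between the WT and the Lrg1-/- libraries. After MCAO/R the Lrg1-/- group was 5.20-fold lower than the WT group (log2 fold change -2.38, SE 0.296, adjusted p = 0.000140 in edgeR), where 16.2% of all genes tested in these cells were called. This call held under all 19 alternatives, with log2 fold changes from -2.77 to -1.88. The fall from sham to MCAO/R within Lrg1-/- mice was smaller (log2 fold change -1.12, SE 0.276, adjusted p = 0.0183), and its call was lost without sham + Lrg1-/- replicate 1 (adjusted p = 0.0679) or 2 (0.0898) and without MCAO/R + Lrg1-/- replicate 1 (0.0569) or 2 (0.0746). In WT mice the difference from sham to MCAO/R did not pass (0.65, SE 0.282, adjusted p = 0.179), nor did that between genotypes after sham (-0.61, SE 0.262, adjusted p = 0.270). The interaction was -1.77 (SE 0.394, adjusted p = 0.0893) in edgeR and was called by DESeq2 (adjusted p = 0.0046), so that its call depended on the tool.

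The order of the groups for P2rx7 was the same inside 1 cluster of these macrophages. In cluster 27, the larger of their clusters, P2rx7 was at 678, 591 and 650 CPM in sham + WT, 690 and 1332 CPM in MCAO/R + WT, 465 and 611 CPM in 2 sham + Lrg1-/- libraries and 202 and 264 CPM in 2 MCAO/R + Lrg1-/- libraries, the other libraries having under 20 cells there. MCAO/R + Lrg1-/- replicate 1 gave only 49 border-associated macrophages, and sham + Lrg1-/- replicate 5 only 33, against 156 to 255 in WT libraries. In cells thinned to 1000 UMIs, 41.4% of MCAO/R + WT and 13.5% of MCAO/R + Lrg1-/- macrophages had a P2rx7 UMI (76.1% and 52.6% before thinning). Haemoglobin genes summed to 13 to 42.3 CPM in these macrophages of WT libraries and 3766 to 27312 CPM in Lrg1-/- libraries. Dissociation genes stood at 28014 to 34544 CPM in MCAO/R + WT, 14079 to 17560 CPM in sham + Lrg1-/- and 7920 to 10336 CPM in MCAO/R + Lrg1-/-, so that they were lower in the last group in both of the comparisons in which P2rx7 was called. The part of either gene set in the P2rx7 results was not tested.

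**Figure D2:**
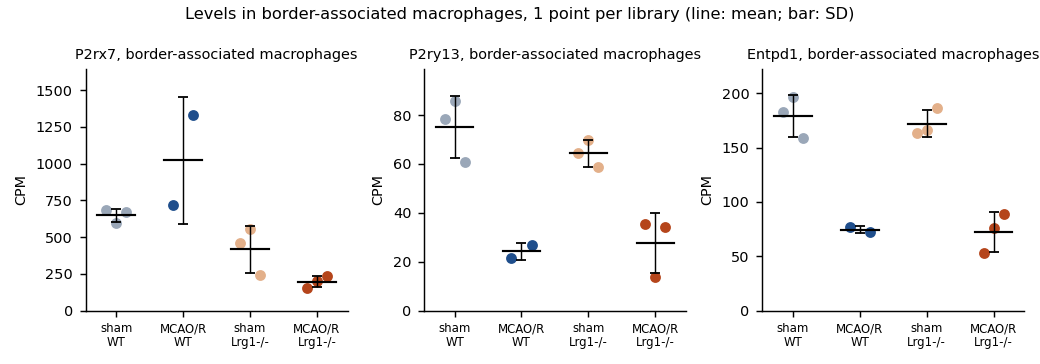
CPM of P2rx7, P2ry13 and Entpd1 in border-associated macrophages, 1 point per library, with the mean (line) and SD (bar) of each group. For P2rx7 the 2 MCAO/R + WT libraries (716 and 1329 CPM) are the highest and the 3 MCAO/R + Lrg1-/- libraries (155 to 233 CPM) the lowest, while P2ry13 and Entpd1 are lower after MCAO/R in both genotypes.

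In microglia P2rx7 was also lower in Lrg1-/- mice after MCAO/R, by less. It stood at 68.8 and 83.1 CPM in WT and 46.1, 54.2 and 51.3 CPM in Lrg1-/- libraries, which did not overlap (log2 fold change -0.58, SE 0.132, adjusted p = 0.00808). That call was lost without MCAO/R + WT replicate 2 (-0.44, adjusted p = 0.0882). After sham it stood at 72.9, 76.4 and 84.8 CPM in WT and 59.9, 69.1 and 62.6 CPM in Lrg1-/- libraries, which did not overlap either, though the difference did not pass (-0.29, adjusted p = 0.105). Surgery gave a log2 fold change of -0.04 in WT (adjusted p = 0.873) and -0.33 in Lrg1-/- mice (adjusted p = 0.0503). P2rx4, the P2X receptor tied to the microglial reaction after nerve injury, ranged from 66.6 to 97.0 CPM in microglia over all 11 libraries and from 96.4 to 167 CPM in border-associated macrophages, and passed no test in either.

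Both P2X genes moved in oligodendrocytes, the myelin-forming cells. P2rx4 fell from 33.5, 29.1 and 27.5 CPM in sham + WT to 18.1 and 12.6 CPM in MCAO/R + WT (log2 fold change -0.98, SE 0.213, adjusted p = 0.00679). P2rx7 fell from 27.4, 25 and 25.8 CPM to 12.4 and 14.9 CPM (-0.93, SE 0.174, adjusted p = 0.00266). Neither pair of groups overlapped. In Lrg1-/- mice the groups overlapped, at 22.0 to 33.5 CPM after sham and 23.2 to 34.6 CPM after MCAO/R for P2rx4, and at 22.7 to 30.7 CPM and 20.6 to 28.8 CPM for P2rx7. After MCAO/R both were higher in Lrg1-/- than in WT oligodendrocytes, P2rx4 by 0.91 on the log2 scale (SE 0.216, adjusted p = 0.00940) and P2rx7 by 0.82 (SE 0.176, adjusted p = 0.00555), in a comparison that called 30.7% of all oligodendrocyte genes. The interactions were 1.01 (adjusted p = 0.116) and 0.72 (adjusted p = 0.164) in edgeR, and DESeq2 called that of P2rx4 (adjusted p = 0.035).

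Without MCAO/R + WT replicate 2, P2rx4 lost both its calls in oligodendrocytes (adjusted p = 0.0912 for the fall in WT and 0.121 between genotypes), and both were also lost in cells thinned to 1000 UMIs (0.0844 and 0.0708). P2rx7 lost the fall in WT when cells were thinned (adjusted p = 0.0921) and the difference between genotypes when doublets were kept (0.43, adjusted p = 0.0901). The oligodendrocytes of the groups came from different clusters: cluster 10 held 85.9% of them in the MCAO/R + WT group, cluster 19 held 65.7% in the sham + WT group, and clusters 13 and 14 held 42.2% and 38.8% in the MCAO/R + Lrg1-/- group. These shares pool cells over libraries. MCAO/R + Lrg1-/- replicate 5 gave 5776 oligodendrocytes, against 314 and 1271 in replicates 1 and 2. Within cluster 10, P2rx4 was at 18.8 and 13.2 CPM in MCAO/R + WT, 21.5 and 21.4 CPM in the 2 sham + WT libraries with enough cells, and 24.2 to 27.7 CPM in MCAO/R + Lrg1-/-. Of the oligodendrocyte markers, 7 (Mag, Mog, Mobp, Cldn11, Ermn, Mbp and Opalin) summed to 14116 to 15547 CPM in sham + WT, 11015 to 11518 CPM in MCAO/R + WT, 9974 to 11853 CPM in sham + Lrg1-/- and 7626 to 10495 CPM in MCAO/R + Lrg1-/- oligodendrocytes. In WT mice 6 of the 7 were lower after MCAO/R without overlap, and Mobp was higher. Microglial markers (the sum of Tmem119, Cx3cr1 and Csf1r) were at 117 to 188 CPM in sham + WT, 72.0 to 98.0 CPM in MCAO/R + WT and 192 to 594 CPM in MCAO/R + Lrg1-/- oligodendrocytes, so that they differed without overlap in both comparisons. The part of either in the P2X results, and of the former in those of Nt5e, was not tested.

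In endothelial cells P2rx4, which in vessels is known as a sensor of flow, was at 15.6 to 19.5 CPM after sham and at 23.3, 24.3 and 26.8 CPM after MCAO/R in Lrg1-/- mice, a rise with no overlap (log2 fold change 0.45, SE 0.121, adjusted p = 0.0187). It was also above the MCAO/R + WT libraries, at 17.4 and 17.5 CPM (0.50, SE 0.128, adjusted p = 0.0134). The first call was lost without sham + Lrg1-/- replicate 1 (adjusted p = 0.0835) and MCAO/R + Lrg1-/- replicate 2 (0.0577), with haemoglobin-rich cells left out (0.36, adjusted p = 0.0604) and with cells thinned (0.87, adjusted p = 0.0750). The other was lost without MCAO/R + WT replicate 1 (0.0687) or 2 (0.0883) and with cells thinned (adjusted p = 0.253). The median of the microglial markers in endothelial cells was also higher in MCAO/R + Lrg1-/- than in MCAO/R + WT, as given further on. In MCAO/R + Lrg1-/- endothelial cells P2rx4 stood at 25.1 to 34.0% of its microglial level and the markers at 5.97 to 15.2%. The part of the markers in this difference between genotypes was not tested. In neurons and neuroblasts P2rx4 was at 51.1, 20.4 and 21.6 CPM in MCAO/R + Lrg1-/- against 11.0 and 10.4 CPM in MCAO/R + WT (1.34, SE 0.382, adjusted p = 0.0395). That call was lost without any 1 of the sham + WT replicates 1, 2 and 3 (adjusted p = 0.0564, 0.0567 and 0.0548), the MCAO/R + WT replicates 1 and 2 (0.158 and 0.219) and MCAO/R + Lrg1-/- replicate 1 (0.0674). Markers of other cells moved in the same comparison of neurons: choroid plexus markers went from 83.1 to 176 CPM in MCAO/R + WT to 5763 to 21360.1 CPM in MCAO/R + Lrg1-/-, the microglial markers went from 93.5 to 98.5 CPM in MCAO/R + WT to 364 to 688 CPM in MCAO/R + Lrg1-/-, neutrophil markers (S100a8, S100a9, Retnlg, Csf3r) from 15.1 to 20.2 CPM to 18.0 to 1469.8 CPM with overlap, and oligodendrocyte markers from 68.2 to 167 CPM to 195 to 843 CPM. Their part in this call and in those of P2ry6, Entpd1 and Adora1 in neurons was not tested.

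**Figure D3:**
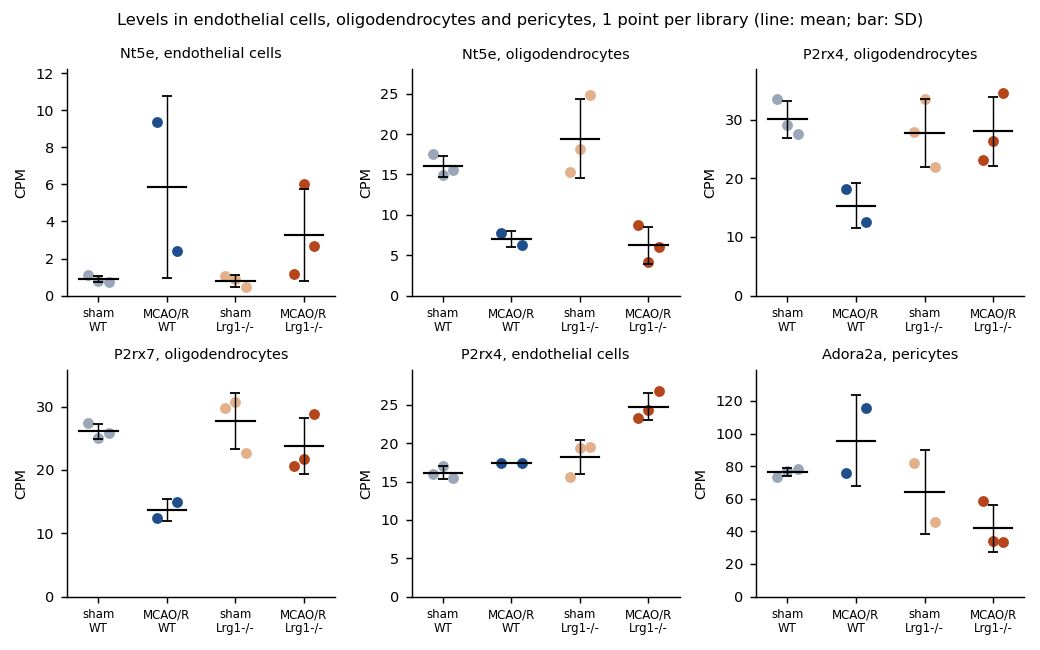
CPM by library (points), mean (line) and SD (bar) of Nt5e in endothelial cells and oligodendrocytes, P2rx4 and P2rx7 in oligodendrocytes, P2rx4 in endothelial cells and Adora2a in pericytes. In oligodendrocytes P2rx4 and P2rx7 are lowest in the 2 MCAO/R + WT libraries, and Nt5e is below the sham libraries after MCAO/R in both genotypes.

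Of the P2Y receptors, P2ry13 fell in microglia in both genotypes, and was lower in the sham + Lrg1-/- than in the sham + WT group. The sham + WT libraries held 283, 252 and 299 CPM, the MCAO/R + WT libraries 107 and 91.1 CPM, the sham + Lrg1-/- libraries 176, 173 and 196 CPM, and the MCAO/R + Lrg1-/- libraries 108, 76.0 and 102 CPM. The 2 sham groups did not overlap with each other or with the MCAO/R groups, and the 2 MCAO/R groups overlapped. The fall in WT mice was 2.81-fold (log2 fold change -1.49, SE 0.163, adjusted p = 4.14e-05), and the log2 fold change in Lrg1-/- mice was -0.93 (SE 0.143, adjusted p = 0.000298). The sham groups differed by -0.61 (SE 0.141, adjusted p = 0.00763). These 3 calls held under the 19 alternatives run for each. The summed markers of microglia were lower without overlap in the same 3 comparisons. Their part in these calls, and in those of Entpd1 in microglia, was not tested. The interaction was 0.55 (SE 0.211, adjusted p = 0.116), so a smaller fall in Lrg1-/- mice was not shown.

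P2ry13 was lower after MCAO/R inside clusters as well. The share of microglia in clusters 2 and 5 went from 47.0% and 34.5% in sham + WT to 1.35% and 1.22% in MCAO/R + WT, while cluster 1 went from 6.78% to 67.8% and cluster 6 from 0.191% to 22.2%. Within cluster 1 P2ry13 was at 169 to 194 CPM in sham + WT and 87.8 to 141 CPM in MCAO/R + WT. Within cluster 17, which held 11.6% and 7.41% of microglia, it was at 234 to 331 CPM and 120 to 156 CPM in WT, and at 185 to 215 CPM and 107 to 128 CPM in Lrg1-/- libraries. The share of microglia with a P2ry13 UMI was 82.3% in sham + WT and 57.5% in MCAO/R + WT, and 23.4% and 9.55% after thinning to 1000 UMIs. In endothelial cells, given for comparison, these shares were 8.53% and 3.97%, and 1.02% and 0.436% when thinned.

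**Figure D4:**
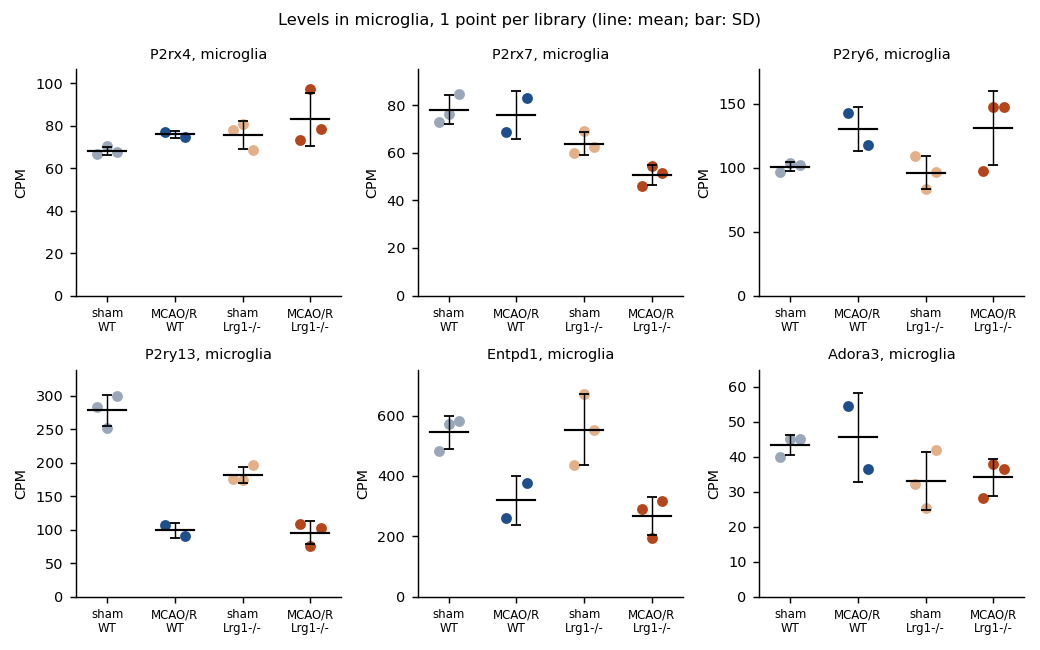
CPM by library (points), mean (line) and SD (bar) of P2rx4, P2rx7, P2ry6, P2ry13, Entpd1 and Adora3 in microglia of the 4 groups. P2ry13 goes from 252 to 299 CPM in sham + WT to 91.1 and 107 CPM in MCAO/R + WT, and Entpd1 is lower after MCAO/R in both genotypes.

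In border-associated macrophages P2ry13 was also lower after MCAO/R. It stood at 78.4, 85.6 and 60.9 CPM in sham + WT and at 21.6 and 26.7 CPM in MCAO/R + WT (log2 fold change -1.64, SE 0.293, adjusted p = 0.00212). In Lrg1-/- mice it stood at 64.4, 69.7 and 58.8 CPM after sham and at 35.2, 13.6 and 34.0 CPM after MCAO/R (-1.50, SE 0.323, adjusted p = 0.00917), a call lost without MCAO/R + Lrg1-/- replicate 2 (-0.90, adjusted p = 0.0868). Both calls were lost when cells were thinned to 1000 UMIs (adjusted p = 0.102 and 0.240). The microglial markers in these macrophages stood at 32.6 to 37.0% of their microglial level in sham + WT, and P2ry13 at 20.4 to 34.0% of its own. In MCAO/R + WT the ranges were 33.6 to 36.9% and 20.2 to 29.3%. P2ry13 was below the share of those markers in 10 of the 11 libraries, though Csf1r and Cx3cr1 are also genes of these macrophages. The markers themselves were lower after MCAO/R in these macrophages without overlap, at 1310.0 to 1359.6 CPM in sham + WT and 646 to 653 CPM in MCAO/R + WT, and at 1435 to 1569 CPM and 604 to 965 CPM in Lrg1-/- mice. The part of the markers in the P2ry13 result was not tested.

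Outside macrophages, P2ry13 was called in 3 further types. In endothelial cells it was lower in MCAO/R + WT, at 4.61 and 3.19 CPM, than in sham + WT, at 11.8, 11.2 and 9.12 CPM (log2 fold change -1.44, SE 0.403, adjusted p = 0.0241). The call was lost without sham + WT replicate 1 (adjusted p = 0.0621) or 2 (0.0646) and MCAO/R + WT replicate 1 (0.0632) or 2 (0.136), and also in cells thinned to 1000 UMIs. In oligodendrocytes after MCAO/R it was at 4.48 and 2.94 CPM in WT and 6.52, 6.15 and 25.1 CPM in Lrg1-/- libraries (1.89, SE 0.602, adjusted p = 0.0336), a call lost without MCAO/R + WT replicate 1 (0.0714) or 2 (0.207) and MCAO/R + Lrg1-/- replicate 5 (0.80, adjusted p = 0.210). In choroid plexus epithelial cells after sham it was at 7.67, 7.50 and 6.61 CPM in WT and 13.2, 21.9 and 11.4 CPM in Lrg1-/- libraries (1.11, SE 0.349, adjusted p = 0.0371), a call lost without sham + WT replicate 1 (0.0685), 2 (0.130) or 3 (0.108) and sham + Lrg1-/- replicate 1 (0.0566) or 2 (0.132), and also with haemoglobin-rich cells left out (0.74, adjusted p = 0.167) and under 10% mitochondrial UMIs (0.186). As a share of its microglial level, P2ry13 was below the share of the microglial markers in 8 of the 11 endothelial and 8 of the 11 oligodendrocyte libraries, all 5 WT endothelial libraries among them. In WT endothelial cells the markers were lower after MCAO/R as well, at 142 to 178 CPM in sham + WT and 96.3 to 126 CPM in MCAO/R + WT. In choroid plexus epithelial cells after sham it was below the markers in the 3 WT libraries and above them in 2 of the 3 Lrg1-/- libraries, while the markers themselves stood at 132 to 152 CPM in WT and 209.8 to 331 CPM in Lrg1-/- libraries. Neutrophils held P2ry13 at 32.4 CPM. The part of the microglial markers in these calls, and of neutrophil RNA in that of oligodendrocytes, was not tested.

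P2ry6 was called higher after MCAO/R in Lrg1-/- mice in several types. In microglia it was at 96.8, 104 and 102 CPM in sham + WT, 142 and 118 CPM in MCAO/R + WT, 109, 82.9 and 96.4 CPM in sham + Lrg1-/-, and 97.5, 148 and 148 CPM in MCAO/R + Lrg1-/-. The WT groups did not overlap but the difference did not pass (log2 fold change 0.37, adjusted p = 0.162), while the Lrg1-/- groups overlapped and the difference passed (0.45, SE 0.163, adjusted p = 0.0446). The latter call was lost under 12 of 19 alternatives (adjusted p up to 0.178), among them each sham + WT library left out in turn, sham + Lrg1-/- replicates 2 and 5 and MCAO/R + Lrg1-/- replicates 2 and 5. MCAO/R + Lrg1-/- replicate 1, at 97.5 CPM, lay within the range of sham + Lrg1-/-. Replicates 2 and 5, the larger libraries of that group, were both at 148 CPM. The part of library size in this call was not tested. In border-associated macrophages, at 75.8 to 149 CPM, no comparison of P2ry6 passed.

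In non-macrophage types P2ry6 was called higher after MCAO/R within Lrg1-/- mice in endothelial cells (log2 fold change 1.52, adjusted p = 0.0296), oligodendrocytes (1.69, adjusted p = 0.0479), vascular smooth muscle cells (1.49, adjusted p = 0.0488) and choroid plexus epithelial cells (1.26, adjusted p = 0.0183). Against MCAO/R + WT it was called higher in oligodendrocytes (1.77, adjusted p = 0.0193), pericytes (2.17, adjusted p = 0.0129) and neurons and neuroblasts (1.57, adjusted p = 0.0171). In oligodendrocytes the MCAO/R + Lrg1-/- libraries were at 9.41, 13.3 and 36.4 CPM against 7.26 and 4.93 CPM in MCAO/R + WT, replicate 5 being the highest, and without it neither oligodendrocyte call held (adjusted p = 0.158 and 0.0643). Each of these 7 calls was lost on leaving out at least 1 library, but they were unlike in how often: in vascular smooth muscle cells under 14 of 18 alternatives (adjusted p up to 0.309, DESeq2 and doublets kept among them), in oligodendrocytes between surgeries under 8 of 19 and between genotypes under 2 of 19, in endothelial cells under 6 of 19, in pericytes and in neurons under 4 of 17 each, and in choroid plexus epithelial cells under 2 of 18. Microglial markers were higher in the 3 comparisons of genotype, as given for oligodendrocytes and neurons above. In the 4 comparisons of surgery within Lrg1-/- mice their median was lower after MCAO/R, at 251 CPM after sham and 203 CPM after MCAO/R in oligodendrocytes, 222 and 166 CPM in endothelial cells, 200.2 and 152 CPM in vascular smooth muscle cells and 260.3 and 201 CPM in choroid plexus epithelial cells, with overlapping ranges. The median of the neutrophil markers was higher after MCAO/R in the same 4 types, at 81.3 and 399 CPM in oligodendrocytes, 36.1 and 215 CPM in endothelial cells, 29.9 and 211 CPM in vascular smooth muscle cells and 93.8 and 507 CPM in choroid plexus epithelial cells, without overlap in the last only. Neutrophils themselves held P2ry6 at 34.9 CPM, and the part of their markers was not tested. A median does not follow 1 high library, such as the 36.4 CPM of P2ry6 in oligodendrocytes. In MCAO/R + Lrg1-/- oligodendrocytes P2ry6 stood at 8.98 to 24.7% of its microglial level and the microglial markers at 7.96 to 23.5%, with P2ry6 above the markers in 2 of 3 libraries. In endothelial cells of that group the ranges were 4.89 to 14.6% and 5.97 to 15.2% (P2ry6 above in 1 of 3). In vascular smooth muscle cells they were 4.92 to 19.7% and 6.32 to 15.3% (2 of 3). In choroid plexus epithelial cells they were 8.06 to 12.2% and 7.02 to 9.97% (3 of 3). The ranges lay close to each other, and the part of the microglial markers in the P2ry6 calls was not tested.

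**Figure D5:**
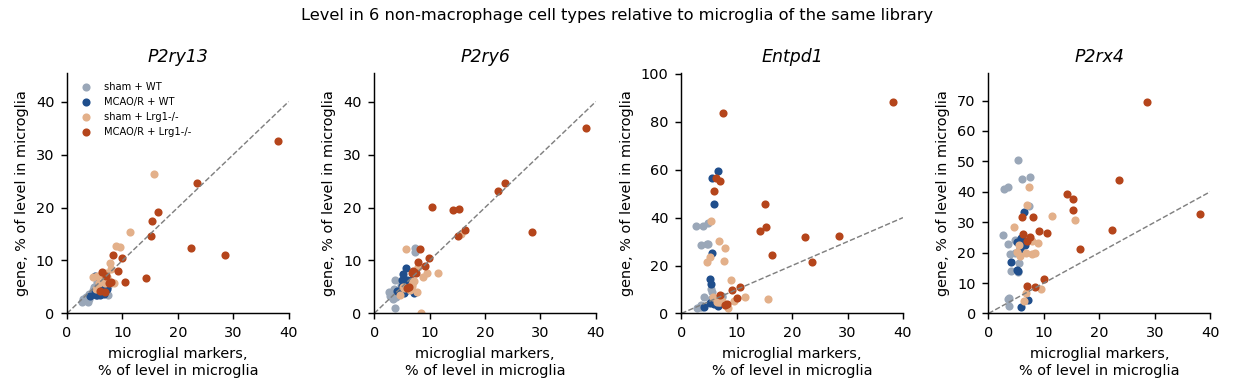
Level of P2ry13, P2ry6, Entpd1 and P2rx4 in 6 non-macrophage cell types as a percent of the level in microglia of the same library, against the same percent for the sum of 3 microglial markers, 1 point per library and type. The dashed line marks equal percents. P2ry13 in endothelial cells and oligodendrocytes lies under it in 8 of 11 libraries each, while Entpd1 in endothelial cells lies above it in all 11.

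Of the ectonucleotidases, Entpd1 fell after MCAO/R in both kinds of resident macrophage. In microglia it was at 482, 571 and 581 CPM in sham + WT and 262 and 375 CPM in MCAO/R + WT, with no overlap (log2 fold change -0.77, SE 0.230, adjusted p = 0.0286). It was at 437, 671 and 552 CPM in sham + Lrg1-/- and 289, 195 and 317 CPM in MCAO/R + Lrg1-/-, again with no overlap (-1.05, SE 0.205, adjusted p = 0.00139). The WT call was lost without sham + WT replicate 2 (adjusted p = 0.0874) or 3 (0.0950) and without MCAO/R + WT replicate 1 (-0.53, adjusted p = 0.248), while the Lrg1-/- call held under all 19 alternatives. Within clusters the groups lay closer: in cluster 17 Entpd1 was at 313 to 391 CPM in sham + WT and 333 to 363 CPM in MCAO/R + WT, and in cluster 1 at 415 to 491 CPM and 342 to 375 CPM. Cluster 6, which held 22.2% of MCAO/R + WT and 41.8% of MCAO/R + Lrg1-/- microglia, had 127 to 216 CPM.

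In border-associated macrophages Entpd1 fell from 183, 196 and 159 CPM to 76.7 and 72.0 CPM in WT (log2 fold change -1.27, SE 0.199, adjusted p = 0.000793) and from 164, 166 and 187 CPM to 52.9, 76.0 and 88.9 CPM in Lrg1-/- mice (-1.23, SE 0.196, adjusted p = 0.00191). The groups did not overlap in either genotype, and both calls held under all 19 alternatives. Entpd1 in these macrophages was at 27.3 to 38.0% of its microglial level in sham + WT and 19.2 to 29.3% in MCAO/R + WT, against 32.6 to 37.0% and 33.6 to 36.9% for the microglial markers. Those markers were also lower in these macrophages after MCAO/R, as given for P2ry13, and their part in the fall of Entpd1 was not tested. In neutrophils, where only MCAO/R libraries had enough cells, Entpd1 was at 988 and 671 CPM in WT and 654 and 363 CPM in Lrg1-/- libraries, and the difference did not pass (-0.71, SE 0.413, adjusted p = 0.550).

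In endothelial and vascular smooth muscle cells no comparison of Entpd1 passed. In endothelial cells, where CD39 limits clotting by removing ADP, it was at 94.7 to 165 CPM over all 11 libraries, and on the log2 scale MCAO/R gave -0.32 in WT (SE 0.175, adjusted p = 0.228) and 0.19 in Lrg1-/- mice (SE 0.159). In vascular smooth muscle cells, at 107 to 211 CPM, the values were -0.33 and -0.38 (adjusted p = 0.253 and 0.144). In MCAO/R + Lrg1-/- endothelial cells Entpd1 stood at 45.8 to 83.7% of its microglial level, against 5.97 to 15.2% for the microglial markers.

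In pericytes Entpd1 was at 15.2 and 12.4 CPM in MCAO/R + WT and 32.5, 66.9 and 280 CPM in MCAO/R + Lrg1-/- libraries (log2 fold change 3.17, SE 0.595, adjusted p = 0.00571). This call was lost without MCAO/R + WT replicate 2 (3.0, adjusted p = 0.0522), with doublets kept (1.53, adjusted p = 0.0636) and with cells thinned (2.26, adjusted p = 0.0559). The library at 280 CPM, replicate 5, stood far above the others, and without it the log2 fold change was 2.03 (adjusted p = 0.00927). Microglial markers in pericytes summed to 118 to 124 CPM in MCAO/R + WT and 254 to 962 CPM in MCAO/R + Lrg1-/-. Neutrophil markers, of the cells in which Entpd1 was highest, summed to 18.8 to 22.2 CPM and 65.0 to 350.1 CPM, and the part of either in this result was not tested. In neurons and neuroblasts Entpd1 was called higher in MCAO/R + Lrg1-/- than in MCAO/R + WT (0.93, adjusted p = 0.0467), a call lost under 12 of 17 alternatives (adjusted p up to 0.286), 9 of them with 1 library left out, and the markers of other cells given for neurons apply there too.

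Nt5e moved in opposite directions in 2 cell types. In oligodendrocytes it fell from 17.5, 15 and 15.6 CPM to 7.70 and 6.28 CPM in WT (log2 fold change -1.20, SE 0.264, adjusted p = 0.00719) and from 15.3, 18.2 and 24.9 CPM to 8.69, 4.14 and 5.96 CPM in Lrg1-/- mice (-1.68, SE 0.272, adjusted p = 0.00288). No sham library overlapped with an MCAO/R library. The WT call was lost without MCAO/R + WT replicate 2 (-1.06, adjusted p = 0.0751), and both were lost in cells thinned to 1000 UMIs (adjusted p = 0.409 and 0.303). Within cluster 10 Nt5e was at 22.7 and 11.9 CPM in sham + WT against 8.85 and 6.5 CPM in MCAO/R + WT, and at 11.9 and 21.3 CPM in sham + Lrg1-/- against 9.64, 4.22 and 4.05 CPM in MCAO/R + Lrg1-/-.

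In endothelial cells Nt5e rose from a low level. It was at 1.09, 0.809 and 0.760 CPM in sham + WT and 9.35 and 2.40 CPM in MCAO/R + WT (log2 fold change 2.75, SE 0.575, adjusted p = 0.00502). In Lrg1-/- mice it was at 1.05, 0.872 and 0.449 CPM after sham and 1.14, 6.0 and 2.70 CPM after MCAO/R (2.16, SE 0.678, adjusted p = 0.0384). The groups did not overlap in either genotype, and 1 library carried much of each rise: without MCAO/R + WT replicate 1 the WT value was 1.44 (adjusted p = 0.157), and without MCAO/R + Lrg1-/- replicate 2 the other was 1.14 (adjusted p = 0.378). The Lrg1-/- call was also lost without any 1 of the 6 sham libraries (adjusted p from 0.0521 to 0.118). Endothelial cells with an Nt5e UMI made up 0.788% in sham + WT and 4.45% in MCAO/R + WT, and 0.821% and 4.30% in Lrg1-/- mice. These shares pool the cells of each group's libraries. In MCAO/R + Lrg1-/-, replicate 2 gave 2892 endothelial cells and 195 Nt5e UMIs. Replicates 1 and 5 gave 311 and 545 cells with 6 and 13 UMIs. In MCAO/R + WT, replicates 1 and 2 gave 296 and 55 UMIs.

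The endothelial cells of the groups lay in different clusters, with cluster 4 holding 70.0% in sham + WT, cluster 8 holding 70.2% in MCAO/R + WT and cluster 12 holding 67.5% in MCAO/R + Lrg1-/-. These shares pool cells as well, and most MCAO/R + Lrg1-/- endothelial cells came from replicate 2. Within cluster 8 Nt5e was at 0 to 2.61 CPM in sham + WT and 8.39 and 1.74 CPM in MCAO/R + WT, which overlapped. Within cluster 12 it was at 9.18, 14.3 and 19.1 CPM in sham + WT and 12.8 and 7.34 CPM in MCAO/R + WT, so no rise was seen in that cluster in WT mice.

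In choroid plexus epithelial cells Nt5e was called lower in MCAO/R + Lrg1-/-, at 1.88, 5.26 and 3.76 CPM, than in MCAO/R + WT, at 16.1 and 3.38 CPM (log2 fold change -1.64, adjusted p = 0.0353). The groups overlapped, and without MCAO/R + WT replicate 1 the sign turned (0.20, adjusted p = 0.930). The call was also lost without MCAO/R + Lrg1-/- replicate 1 (-1.31, adjusted p = 0.0676). In T cells, where Nt5e was highest, MCAO/R + Lrg1-/- against sham + Lrg1-/- gave 1.24 (SE 0.333, adjusted p = 0.360) and did not pass.

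Of the adenosine receptors, Adora2a differed in pericytes between genotypes after MCAO/R. It was at 73.4, 77.0 and 78.3 CPM in sham + WT, 75.8 and 115 CPM in MCAO/R + WT, 82.2 and 45.6 CPM in the 2 sham + Lrg1-/- libraries with enough pericytes, and 58.5, 34.0 and 33.2 CPM in MCAO/R + Lrg1-/-. After MCAO/R the genotypes did not overlap (log2 fold change -1.34, SE 0.292, adjusted p = 0.0126), where 8.65% of all genes tested in pericytes were called. The call was lost without MCAO/R + WT replicate 2 (-1.02, adjusted p = 0.122) or MCAO/R + Lrg1-/- replicate 2 (-1.19, adjusted p = 0.0946). Surgery gave 0.33 in WT (adjusted p = 0.682) and -0.72 in Lrg1-/- mice (adjusted p = 0.423), and the interaction was -1.05 (adjusted p = 0.434). The pericyte markers themselves summed to 13204 to 19609 CPM in MCAO/R + WT and 9684 to 13901 CPM in MCAO/R + Lrg1-/-, and microglial and neutrophil markers were higher in the latter, as given above. The part of these in the Adora2a difference was not tested.

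Adora1, the receptor that damps cyclic AMP and transmitter release, did not pass in the glia that held most of it. In astrocytes it was at 22.1, 22.9 and 25.4 CPM in sham + WT and 36.7 and 34.3 CPM in MCAO/R + WT (log2 fold change 0.59, SE 0.219, adjusted p = 0.132), and at 25.2, 10.6 and 19.1 CPM in sham + Lrg1-/- and 38.4, 38.8 and 38.7 CPM in MCAO/R + Lrg1-/- (1.0, SE 0.334, adjusted p = 0.125). All 5 MCAO/R libraries were thus above the 6 sham libraries in astrocytes, while neither comparison passed after adjustment. In oligodendrocytes after MCAO/R it was at 79.0 and 65.4 CPM in WT and 68.8, 44.8 and 44.6 CPM in Lrg1-/- libraries, which overlapped (-0.48, adjusted p = 0.0542). In neurons and neuroblasts it was called higher in MCAO/R + Lrg1-/- than in MCAO/R + WT (3.44, SE 1.01, adjusted p = 0.0454) on few UMIs, from 0 to 14 per library, and the call was lost under 10 of 15 alternatives (adjusted p up to 0.213), 7 of them with 1 library left out.

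Adora3 ranged from 25.3 to 54.5 CPM in microglia. The surgery differences were 0.07 in WT and 0.08 in Lrg1-/- mice on the log2 scale, and those between genotypes were -0.40 after sham (adjusted p = 0.177) and -0.41 after MCAO/R (adjusted p = 0.149). None passed. All 9 members were tested in microglia, and 2 were called lower and 0 higher in the WT comparison of surgery, where 21.5% of all microglial genes were called. In Lrg1-/- mice 2 were lower and 1 higher, against 35.9%.

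The other genes of the system, a list of 33, were counted beside the members. In microglia 13 of the 29 tested were called in MCAO/R + WT against sham + WT (6 higher, 7 lower) and 12 of 29 in Lrg1-/- mice (7 higher, 5 lower), where 21.5% and 35.9% of all microglial genes were called. P2ry12, the neighbour of P2ry13, fell from 1409 to 1504 CPM in sham + WT to 219 and 227 CPM in MCAO/R + WT (log2 fold change -2.70, SE 0.218, adjusted p = 3.92e-06) and from 872 to 1070 CPM to 178 to 317 CPM in Lrg1-/- mice (-1.88, SE 0.181, adjusted p = 2.98e-05). Like P2ry13 it was lower in sham + Lrg1-/- than in sham + WT (-0.61, adjusted p = 0.0233), and after MCAO/R the genotypes gave 0.21 (adjusted p = 0.478). The ATP and UTP receptor P2ry2 rose in microglia by 3.83 in WT and 3.03 in Lrg1-/- mice on the log2 scale, and Bst1, an enzyme that cuts NAD, by 3.27 and 3.0. Alpl, a phosphatase that can make adenosine from AMP, had log2 fold changes of -3.55 and -1.84, and the ATP-gated channel gene P2rx1 of -1.64 and -1.14. Several of these were at low levels in microglia: from sham + WT to MCAO/R + WT, Alpl went from 1.91 to 0.163 CPM, Bst1 from 0.104 to 1.05 CPM and Dpp4 from 0.468 to 0.0657 CPM, against 109 to 5.01, 3.48 to 30.2 and 31.3 to 3.41 CPM in endothelial cells, where they moved the same way. Endothelial markers (Cldn5, Flt1, Pecam1, Cdh5) summed to 162 to 184 CPM in microglia and 11329.6 to 12788 CPM in endothelial cells of sham + WT, and the part of endothelial RNA in the microglial values was not tested. P2rx3 and P2rx5 were below 1 CPM as well. The nucleoside transporter gene Slc29a2 rose by 1.0 and 2.15. The rest called in WT microglia were the channel gene Lrrc8a (0.93), Adora2b (1.53) and P2ry14 (1.03), which rose, and Dpp4 (-2.72), P2rx3 (-1.57), P2rx5 (-1.17) and Slc29a3 (-0.74), which fell. The rest called in Lrg1-/- microglia were Adk (1.03) and Ada (0.96), whose enzymes remove adenosine, Slc29a1 (0.60) and Pnp (0.47), which rose, and P2rx6 (-1.33) and Calhm2 (-1.14), which fell. Of the 29 tested in microglia, 6 were called between the genotypes after MCAO/R (4 higher, 2 lower) and 7 after sham (1 higher, 6 lower), against 21.0% and 22.6% of all microglial genes.

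In endothelial cells 7 of 24 listed genes were called in each genotype's comparison of surgery (3 higher, 4 lower in both), against 19.5% of all endothelial genes in WT and 21.0% in Lrg1-/- mice. Alpl fell by 4.46 in WT and 2.64 in Lrg1-/- mice on the log2 scale, and the surface protease gene Dpp4 fell by 3.22 and 1.72. Bst1 rose by 3.11 and 2.03, and Pnp, which breaks down inosine, by 0.86 and 0.53. Calhm2 had log2 fold changes of -0.78 and -0.53, and P2ry12 of -2.57 and -1.97, at 56.4 and 9.44 CPM in sham + WT and MCAO/R + WT and 88.6 and 24.5 CPM in Lrg1-/- mice, well below its microglial level. Microglial markers in WT endothelial cells were lower after MCAO/R too, as given for P2ry13, and their part was not tested. Lrrc8a rose by 1.07 in WT mice, and Slc29a2 by 1.76 in Lrg1-/- mice. P2ry1, an ADP receptor, gave 0.32 after MCAO/R in WT (adjusted p = 0.349) and did not pass. The interaction was called for 5 of 175 pairs of the list, against 1.74% of all pairs, among them Lrrc8a (-0.96, adjusted p = 0.0165) and Slc29a1 (0.89, adjusted p = 0.0122) in microglia and Alpl (1.82) and Lrrc8a (-0.93) in endothelial cells.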

How the data were processed

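The tissue was the right brain of 11 mice, digested at 37 °C with red blood cell lysis, and libraries were made with a 10x 3′ kit (labels: v3). The authors deposited raw UMI counts per gene and barcode, made with Cell Ranger and STAR on mm10 per the submitters' processing notes (file headers name version 7.0.1), with at least 500 UMIs per barcode in every library. Reads of genes that overlap on 1 strand can be shared, and only the 3′ end of transcripts was counted.

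Cells with over 500 genes, over 1000 UMIs and under 25% mitochondrial UMIs were kept (132437), and the 6% per library most like simulated doublets were removed (7946). Leiden clustering (leidenalg 0.10.2, 15 components, 2000 variable genes without the members, neighbours balanced over mice) gave 72 clusters. Those led by at least 3 markers of a type, with a margin of 1.2 on the log2 scale, were named. Clusters whose leading genes held more markers of another type were not, some scored as T cells or monocytes among them. In all, 31404 cells stayed unnamed. Clustering settings and the naming rule were set after clusters were seen, and the members and lists were chosen with earlier results of these data known. Library pairs shared few barcodes. Percents of the cells of a group pool the cells of its libraries, which gave unlike numbers of cells.

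UMIs were summed per library and type and tested in edgeR 4.0.16 (R 4.3.3; quasi-likelihood, TMM, filterByExpr) over all 4 groups, with Benjamini-Hochberg adjustment over all genes of a type. SE is the log2 fold change divided by the root of F. On simulated counts the fit recovered 43.3% of 2-fold and 84.4% of 4-fold changes in microglia. Alternatives were DESeq2 1.42.0, its size factors, no filter, a replicate block, doublets kept, under 10% mitochondrial UMIs, haemoglobin-rich cells left out, cells thinned to 1000 UMIs and each library left out. All members are named, with the listed genes called in microglia or endothelial cells, and P2ry12 and P2ry1. Promoters were found for 7 members. Marker sums for microglia and oligodendrocytes leave out genes that are not reported here.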

Additional observations from a re-analysis of the deposited data

Results flagged for a closer look

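Cells in large clusters that the markers did not name entered no comparison, and in 9 of 29 cases of a member, cluster and genotype with every MCAO/R library at 10 CPM or more, the lowest MCAO/R library stood above the highest sham library. Over all genes 16.8% of such cases did. These cases were looked for among clusters of at least 3000 cells and genes reaching 10 CPM, and none was tested. All 9 were cases of P2rx4 or P2ry6, and the clusters share libraries, so they are not independent of each other. In either direction the 10 CPM limit was set on the group that had to be higher, for the members and for all genes alike. In WT mice the values of cluster 3, and of P2ry13 in cluster 7, rest on few UMIs in some libraries. In 9 of 28 cases with every sham library at 10 CPM or more the highest MCAO/R library stood below the lowest sham library, against 14.4% over all genes: 6 in cluster 3 (P2rx7, P2ry13 and Entpd1 in both genotypes), P2rx7 in cluster 0 in Lrg1-/- mice (18.7 to 25.3 CPM against 29.2 to 73.4 CPM after sham), P2ry13 in cluster 11 in Lrg1-/- mice (14.7 to 43.4 CPM against 55.0 to 66.5 CPM) and P2ry13 in cluster 7 in WT mice (8.34 to 8.66 CPM against 15.7 to 63.8 CPM).

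Cluster 3 held 6294 cells led by Ccl12, Lpl, Spp1 and Cd72, with microglial and red blood cell markers too close to name it. There P2rx4 reached at least 96.0 CPM in MCAO/R + WT against at most 52.9 CPM in sham + WT, and at least 42.7 CPM in MCAO/R + Lrg1-/- against at most 27.8 CPM in sham + Lrg1-/-. P2ry6 reached at least 114 CPM against at most 66.2 CPM in WT, and at least 60.1 CPM against at most 38.3 CPM in Lrg1-/- libraries. Some of the WT values rest on few UMIs. In cluster 0, with 11583 cells led by Igha, Ighg1, Gpr84 and Jchain, P2rx4 in MCAO/R + Lrg1-/- was at least 43.3 CPM against at most 35.5 CPM after sham, and P2ry6 at least 69.6 CPM against at most 66.0 CPM. In cluster 7, with 5006 cells led by Mgp, Ackr1 and Igfbp4, P2rx4 in Lrg1-/- libraries was at least 21.9 CPM against at most 21.0 CPM. In cluster 11, with 4245 cells led by Myl9, Acta2 and Tpm2, P2rx4 was at least 21.7 CPM against at most 17.5 CPM in Lrg1-/- libraries, and P2ry6 at least 32.7 CPM against at most 24.5 CPM.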

How the results depend on the processing

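Refitting the 39 called pairs of gene and cell type gave 723 values under the alternatives: 578 kept the call, 144 lost it in the same direction and 1 reversed (Nt5e in choroid plexus epithelial cells between genotypes after MCAO/R, 0.20 without MCAO/R + WT replicate 1, and -2.04 to 0.20 over all libraries left out in turn). The pairs called under every alternative run were 7, namely P2ry13 in microglia in 3 comparisons, Entpd1 in border-associated macrophages in both comparisons of surgery, Entpd1 in microglia in Lrg1-/- mice and P2rx7 in border-associated macrophages between genotypes after MCAO/R. The cause of the lost calls was not tested, and some alternatives themselves remove genes or samples.

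Counts of called pairs moved as follows. The pairs tested change with some alternatives, and the share of all pairs called under each is not given. The counts therefore describe the fits and are no result about the members. For MCAO/R + WT against sham + WT (9 in the report) the count was 16 with no filter on low counts and 14 with doublets kept, and 7 to 12 with 1 library left out. For MCAO/R + Lrg1-/- against sham + Lrg1-/- (13) it was 21 with no filter and 7 with cells thinned, and 6 to 14 with 1 library left out. For MCAO/R + Lrg1-/- against MCAO/R + WT (15) it was 23 with no filter, 7 with cells thinned and 8 with the replicate block, and 3 to 19 with 1 library left out, the 3 being without MCAO/R + WT replicate 2. For sham + Lrg1-/- against sham + WT (2) it was 5 with no filter and 1 under 10% mitochondrial UMIs, and 1 to 5 with 1 library left out. For the interaction (0) it was 3 with no filter, 2 with DESeq2 and 1 with cells thinned, and 0 to 2 with 1 library left out.

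Replicate numbers are shared between groups, but in microglia the deviations of same-numbered libraries correlated at -0.25 to 0.04, and over all types 9 of 132 such correlations were above 0.1, so the numbers were not taken as pairs. With the replicate block the counts were 9, 10, 8, 2 and 0 in the order above, and 14 of the 39 calls were not made: Entpd1 in microglia and Nt5e in endothelial cells in WT (adjusted p = 0.0969 and 0.0621), Nt5e and P2ry6 in endothelial cells, P2ry6 in microglia and P2ry6 in vascular smooth muscle cells in Lrg1-/- mice (0.0810, 0.0708, 0.0981 and 0.127), P2ry13 in choroid plexus epithelial cells after sham (0.119), and, between genotypes after MCAO/R, P2rx4 in endothelial cells (0.0650), Adora2a and P2ry6 in pericytes (0.0540 and 0.0677) and Adora1, Entpd1, P2rx4 and P2ry6 in neurons (0.213, 0.286, 0.0643 and 0.171). The MCAO/R + WT group had 2 mice, and when 1 is left out the other is assumed to vary like the other groups. Some Lrg1-/- libraries held few cells of a type: 33 to 201 border-associated macrophages against 156 to 255 in WT libraries, 19 to 189 pericytes against 263 to 631, and 6 to 317 neurons against 83 to 252. Nt5e in endothelial cells and Adora1 in neurons rested on few UMIs.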

Other observations

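In the same unnamed cluster 3, P2ry13 and Entpd1 were lower after MCAO/R than after sham in both genotypes, as in named microglia. P2ry13 was at 238 to 368 CPM in sham + WT and 43.7 to 78.6 CPM in MCAO/R + WT, and at 130 to 161 CPM in sham + Lrg1-/- and 49.4 to 68.7 CPM in MCAO/R + Lrg1-/-. Entpd1 was at 158 to 166 CPM and 52.8 to 122 CPM in WT, and at 128 to 175 CPM and 37.0 to 49.4 CPM in Lrg1-/- libraries. P2rx4 and P2ry6 were higher after MCAO/R in that cluster, as given above, so the receptors of 1 group of cells lay on both sides of their sham levels. P2rx7 in cluster 3 was at 26.5 to 61.1 CPM in sham + WT and 8.73 to 14.5 CPM in MCAO/R + WT, without overlap, and at 26.0 to 28.5 CPM and 17.7 to 22.1 CPM in Lrg1-/- libraries. In some WT libraries the values of this cluster rest on few UMIs, and these cells were not tested.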
